A study of Mus musculus with 3 samples.

Results

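Translation initiation and elongation factors are the proteins that bring messenger RNA, initiator tRNA and ribosome together and then move the ribosome along the message. Their transcripts were sequenced in B16F10, a mouse melanoma cell line that makes pigment, in which siRNA had lowered Med23. The Med23 protein belongs to the tail of Mediator, a large coactivator that relays signals from transcription factors to RNA polymerase II. There were 2 libraries of Med23 knockdown cells, titled siMed23A and siMed23B, and 1 library of wild-type control cells, titled siCtrl, all grown in DMEM with serum. No other allele or agent was given for either group. The genes were taken by name, as all entries whose symbol starts with Eif or Eef and a digit, without the Eif2ak kinases. This gave 60 of the 12852 gene IDs in the table, under 59 symbols, since Eef2k was listed under 2 IDs. The rule also took in 4 genes with the older symbols Eif2c1 to Eif2c4, which encode the Argonaute proteins of RNA silencing and are not translation factors. They are described apart from the rest.

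In initiation, eIF2 carries the initiator tRNA to the small ribosomal subunit, eIF3 and the eIF1 proteins hold that complex ready, and the eIF4 factors bind the cap of the message and unwind its leader. In elongation, eEF1A delivers aminoacyl-tRNA, eEF1B reloads eEF1A with GTP, and eEF2 moves the ribosome by a codon. The pathway is controlled mainly at eIF2, through kinases that phosphorylate its alpha subunit under stress, and at the cap, through 4E-binding proteins that mTOR releases from eIF4E.

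Many messages for elongation factors and ribosomal proteins begin with a C followed by a run of pyrimidines, the TOP motif, through which mTOR and Larp1 control their translation. In annotated RefSeq promoters, which reach from 250 bases before to 50 after each start, the start itself was searched on the gene's strand for a C followed by at least 4 bases that were C or T. Such a start stood in 2 of the 46 member symbols that had a window, Eif3f and Eif2s3x. That was 4.35%, beside 3.09% of the 7740 tested genes with a window. Eef1a1, Eef1b2 and Eef2, listed below as encoded by TOP messages, had a window without such a start, so the search can miss TOP messages. Eif3f and Eif2s3x are shown because both were among the 6 largest rises described below. Each runs from 30 bases before the start to the twentieth base after it on build GRCm38.p6, with the pyrimidine run from the start on in capitals.
Eif3f, plus strand of chr7:108934385-108934434: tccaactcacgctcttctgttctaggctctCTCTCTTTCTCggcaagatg
Eif2s3x, minus strand of chrX:94212632-94212681: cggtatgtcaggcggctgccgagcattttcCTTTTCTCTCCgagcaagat

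Med23 is the Mediator subunit that the ETS factor Elk1 contacts, so the windows were also searched, on both strands, for CCGGAAGT, a sequence that ETS factors bind. It was found in 8 of the 46 member symbols, which is 17.4%, against 10.5% of the 7740 tested genes with a window. Of these 8, Eef1b2, Eif2b2, Eif3l and Eif4e2 were called higher after knockdown, Eif5a and Eif5a2 were called lower, and Eif2b4 and Eif3d did not pass the test. Among all tested genes, 26.3% were called higher and 24% lower. By call, the motif stood in 4 of the 21 matched members called higher, 2 of the 9 called lower and 2 of the 15 that did not pass. Eif3l held the motif in the opposite orientation and is not printed. The stretches of the other 3 members called higher and of the 2 called lower are shown so that both directions can be compared. The motif is in capitals.
Eef1b2, plus strand of chr1:63176816-63176855: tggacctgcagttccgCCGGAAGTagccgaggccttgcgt
Eif2b2, plus strand of chr12:85219481-85219510: gttgacctctctcggcCCGGAAGTgaaaca
Eif4e2, plus strand of chr1:87213900-87213939: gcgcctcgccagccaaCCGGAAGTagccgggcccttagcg
Eif5a, minus strand of chr11:69920662-69920701: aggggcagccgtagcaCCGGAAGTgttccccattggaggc
Eif5a2, plus strand of chr3:28781225-28781264: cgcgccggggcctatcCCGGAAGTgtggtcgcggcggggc
Eif5a2 held the motif a second time, further upstream. A match describes the letters in the window and not binding.

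The values were RPKM, a read density per transcript length and library size, so levels can be compared between genes as well as between libraries. Med23 itself was 1.65 and 1.61 RPKM in the siMed23 libraries, against 5.23 RPKM in the siCtrl library, a log2 ratio of -1.24 with SE 0.11 (limma with Benjamini-Hochberg adjusted p = 0.00121). The 7 melanocytic markers checked, Tyr, Tyrp1, Dct, Pmel, Mlana, Mitf and Sox10, were detected in every library, and all 7 were lower in both siMed23 libraries. Column sums were equal across the libraries, so read depth was unknown and a shift in total RNA would not show. In bulk libraries a change in every cell and a larger change in some cells cannot be told apart. All ratios below are siMed23 over siCtrl on the log2(RPKM + 1) scale, on which changes at low RPKM look smaller than they are. Only the knockdown was repeated, nothing in the labels says that its 2 libraries came from separate cultures, and the p-values therefore rest on a spread that may be technical, with the lone control taken to vary like a siMed23 library.

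The filter, a mean of 1 RPKM or more over the 3 libraries, left 58 members. Of these, 27 were called higher and 12 lower at an adjusted p under 0.05, and 19 did not pass. Among all 9722 genes tested, 50.3% were called, 26.3% higher and 24% lower, so the share of members called higher, 46.6%, lay above that background and the share called lower, 20.7%, near it. Both siMed23 libraries were above the control for 33 members and below it for 20, where 46.6% and 44.2% of all tested genes were. The median log2 ratio was 0.22 over the members and 0.01 over all tested genes. By fold, 8 of the 58 members were at least 1.5-fold higher in both siMed23 libraries and 7 at least 1.5-fold lower. These shares were close to the 14.6% and 13.5% of all tested genes. Of the 58, 0 were 2-fold higher in both (4.97% of all tested genes), and 2 were 2-fold lower, Eif4ebp2 and Eif2c3 (4.76% of all tested genes). Eif2c3 passed the filter only through its control value and so had to be lower, and without it 57 members remained, with 27 higher, 11 lower and 1 that was 2-fold lower. When the control was taken to vary 3 times as much as a siMed23 library, the calls came to 2 higher, Eef1a1 and Eef2, and 0 lower, against 1.21% and 0.792% of all tested genes. Both were among the 15 most abundant genes of each library, and a limit of values at such ranks is given below.

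**Figure D1:**
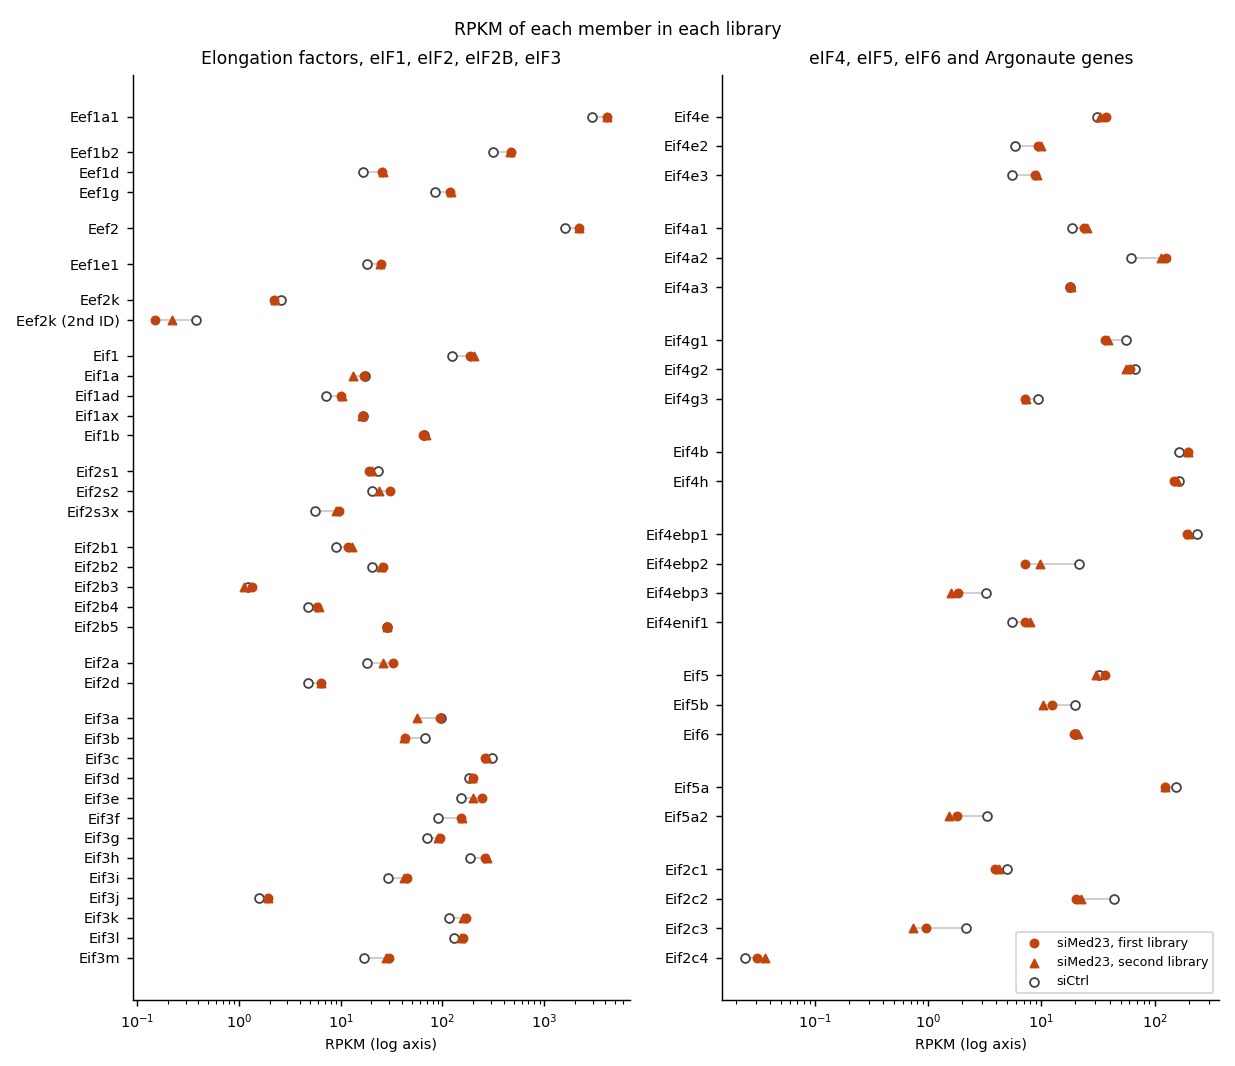
RPKM of the 60 members on a log axis, with filled symbols for the first and the second siMed23 library and open circles for the siCtrl library, grouped by factor complex. Levels run from under 0.1 RPKM for Eif2c4 to 4150.1 RPKM for Eef1a1 in siMed23, and in most rows the distance between siMed23 and siCtrl is small beside the distance between genes.

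**Figure D2:**
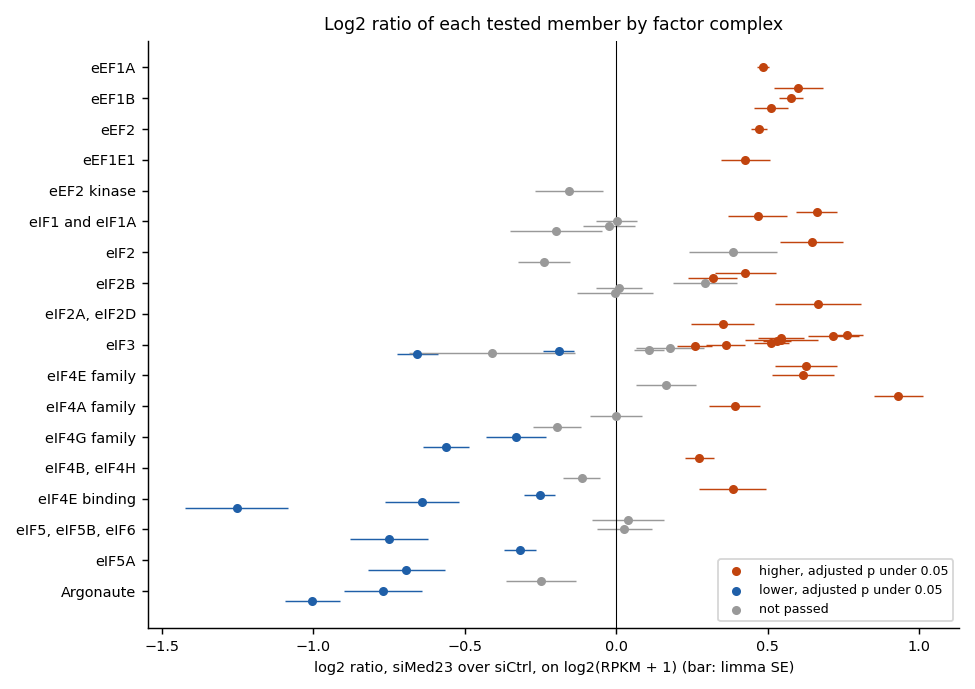
Log2 ratio of siMed23 over siCtrl for the 58 tested members, 1 row for each complex, with bars for limma's SE and color for the call. All members of eEF1A, eEF1B and eEF2 lie to the right of 0, all of the eIF4G family and of eIF5A lie to the left, and eIF3 lies on both sides.

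The elongation factors rose together. All 5 genes of eEF1A, eEF1B and eEF2 in the table passed the test, with log2 ratios in a narrow range from 0.47 to 0.60, where 26.3% of all tested genes were called higher. After the length and GC correction all 5 still passed, with a range from 0.27, for Eef2, to 0.50. Eef1a1, which brings aminoacyl-tRNA to the ribosome, stood at 4150.1 RPKM in both siMed23 libraries, against 2967 RPKM in the siCtrl library, a log2 ratio of 0.48 with SE 0.02 (limma adjusted p = 0.000219). It was the most abundant gene of both siMed23 libraries and the fourth in the siCtrl library. The 2 knockdown values are identical because the distributions had been made equal and the gene held the first rank in both, so its SE is understated. Eef1a1 also has many processed pseudogenes, and reads shared with them make its level uncertain.

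Eef2, the translocase, was 2206 and 2182 RPKM in the siMed23 libraries, against 1584 RPKM in the siCtrl library, a log2 ratio of 0.47 with SE 0.03 (limma adjusted p = 0.000324). Both knockdown values lay well above the control. Eef2 ranked 8 and 9 in the siMed23 libraries and 15 in the siCtrl library. With equal distributions its values follow from these ranks, so its SE may be understated too. Dct, Tyrp1 and Pmel stood above Eef2 in the siCtrl library and below it in both siMed23 libraries. How far such shifts in rank moved its value was not tested. The exchange factor eEF1B moved by a like amount in all its subunits. Eef1b2, its catalytic alpha subunit, was 469 and 462 RPKM in the siMed23 libraries, against 311 RPKM in the siCtrl library. Eef1d, the delta subunit, was 25.6 and 25.9 RPKM in the siMed23 libraries and 16.6 RPKM in the siCtrl library, a log2 ratio of 0.60 with SE 0.08 (limma adjusted p = 0.00344). Eef1g, the gamma subunit that holds the complex together, was 119 and 120.1 RPKM in the siMed23 libraries, against 83.6 RPKM in the siCtrl library. The levels of the subunits differed widely, while their ratios did not.

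Of the genes that carry an Eef name but act beside elongation, Eef1e1 was called higher and Eef2k did not pass. Eef1e1, a scaffold protein of the multi-tRNA-synthetase complex, rose to 24.7 and 24.2 RPKM in the siMed23 libraries, against 18 RPKM in the siCtrl library (limma adjusted p = 0.00972). Its log2 ratio was 0.43, a little below the 0.47 of Eef2, but 0.41 against 0.27 after the length and GC correction. Eef2k, the kinase that inhibits eEF2, was 2.21 and 2.26 RPKM in the siMed23 libraries and 2.60 RPKM in the siCtrl library, with limma adjusted p = 0.291. Its second ID stayed under the filter, at 0.150 and 0.221 RPKM in the siMed23 libraries and 0.383 RPKM in the siCtrl library.

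The subunits of eIF3, the scaffold on which the initiation complex forms, did not move as a block. Of its 13 genes, 8 rose, 2 fell and 3 did not pass the test, with a median log2 ratio of 0.36. The shares were 61.5% higher and 15.4% lower, beside 26.3% and 24% of all tested genes. The rises were in Eif3e, Eif3f, Eif3g, Eif3h, Eif3i, Eif3k, Eif3l and Eif3m, with log2 ratios from 0.26 to 0.76. The falls were in Eif3b and Eif3c, and Eif3a also had lower values in both siMed23 libraries. These last 3 subunits form, with eIF3g and eIF3i, the core that the complex shares with budding yeast, so the core itself was split between rises and falls.

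Eif3f, whose start is printed above, was 154 and 155 RPKM in the siMed23 libraries, against 90.5 RPKM in the siCtrl library, a log2 ratio of 0.76 with SE 0.05 (limma adjusted p = 0.000596). It had the largest ratio in eIF3, but after the length and GC correction Eif3e and Eif3m, at 0.80 and 0.79, stood above its 0.66. Eif3m, a subunit of the same octamer, was 29.6 and 28 RPKM in the siMed23 libraries, against 17.1 RPKM in the siCtrl library, a log2 ratio of 0.72 with SE 0.08 (limma adjusted p = 0.00234). Eif3e was 246 and 199.9 RPKM in the siMed23 libraries, against 152 RPKM in the siCtrl library, a log2 ratio of 0.54 with SE 0.12 (limma adjusted p = 0.0155). The siMed23 libraries lay further apart for Eif3e than for most subunits, yet both were above the control. Eif3h was 265 and 273 RPKM in the siMed23 libraries and 186 RPKM in the siCtrl library. Eif3k was 169 and 160.1 RPKM in the siMed23 libraries, against 115 RPKM in the siCtrl library, and Eif3i 44.6 and 42.2 RPKM in the siMed23 libraries, against 29.4 RPKM in the siCtrl library. Eif3g and Eif3l had the smallest rises, with log2 ratios of 0.36 and 0.26, and Eif3g no longer passed after a correction for transcript length and GC content (limma adjusted p = 0.0723) nor Eif3l without an intensity trend in the variance (limma adjusted p = 0.0792).

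Eif3b, a core subunit, was 42.8 and 41.6 RPKM in the siMed23 libraries, against 67.1 RPKM in the siCtrl library, a log2 ratio of -0.66 with SE 0.07 (limma adjusted p = 0.00174). Eif3c was 263 and 277 RPKM in the siMed23 libraries, against 308 RPKM in the siCtrl library (limma adjusted p = 0.0285). That smaller fall no longer passed without an intensity trend, with limma adjusted p = 0.155. Eif3a, the largest subunit, was 93.8 and 56.7 RPKM in the siMed23 libraries, against 97.3 RPKM in the siCtrl library (limma adjusted p = 0.256). One knockdown library thus stood near the control and the other far below it. Eif3d, which contacts the messenger RNA, was 199.9 and 196 RPKM in the siMed23 libraries and 184 RPKM in the siCtrl library (limma adjusted p = 0.115). Eif3j, a loosely bound subunit, was 1.93 RPKM in each siMed23 library and 1.59 RPKM in the siCtrl library and did not pass. The RPKM of Eif3h was 6.19 and 6.56 times that of Eif3b in the siMed23 libraries and 2.77 times in the siCtrl library.

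**Figure D3:**
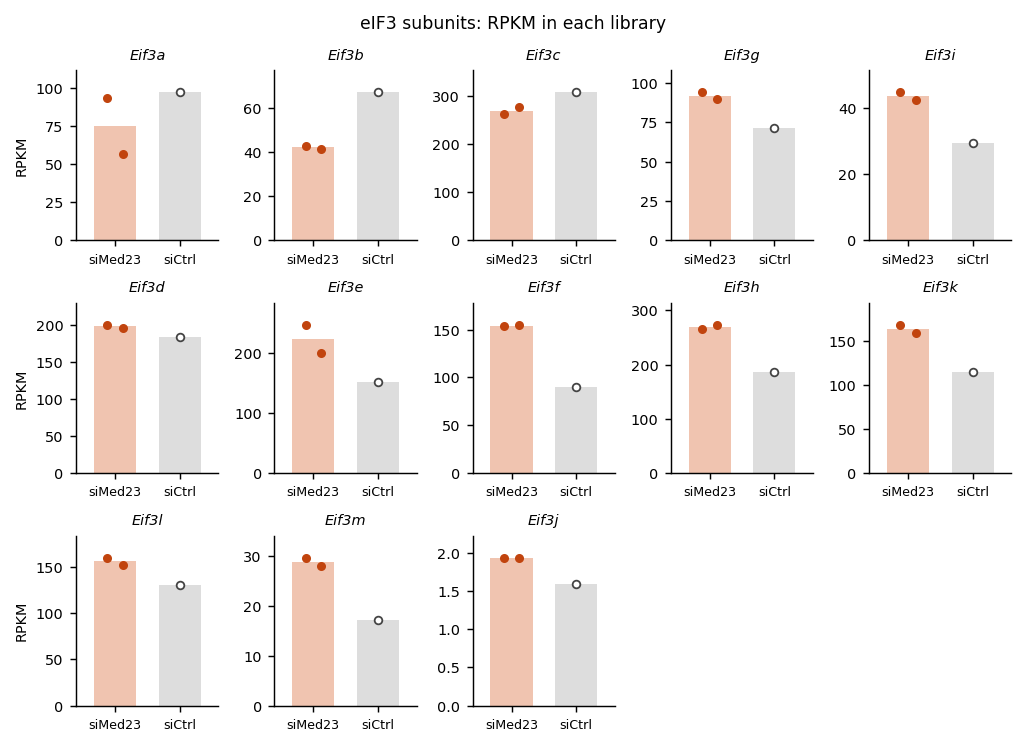
RPKM of the 13 eIF3 subunit genes, 1 panel each with an axis from 0. Bars give the mean of the 2 siMed23 libraries and the value of the siCtrl library, and points give the libraries, with the first siMed23 library on the left. Eif3a, Eif3b and Eif3c are lower in siMed23 and the other 10 subunits are higher, with the 2 siMed23 points of Eif3a far apart.

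On the cap-binding side of initiation, Eif4e itself did not pass the test, whereas most of its paralogs, partners and binding proteins did. Of the 15 genes of the eIF4 group, 6 rose, 5 fell and 4 missed the threshold. That was 40% higher and 33.3% lower, beside 26.3% and 24% of all tested genes, of which 50.3% were called. Eif4e, which binds the cap, was 37.4 and 33 RPKM in the siMed23 libraries, against 31.3 RPKM in the siCtrl library, a log2 ratio of 0.16 with SE 0.10 (limma adjusted p = 0.216). Its paralogs, which also bind caps, both rose. Eif4e2 was 9.31 and 9.88 RPKM in the siMed23 libraries, against 5.87 RPKM in the siCtrl library (limma adjusted p = 0.00613). Eif4e3 was 8.71 and 9.18 RPKM in the siMed23 libraries, against 5.49 RPKM in the siCtrl library (limma adjusted p = 0.00645).

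Eif4a2, a helicase that unwinds messenger RNA leaders, had the largest rise of all members. It was 126 and 114 RPKM in the siMed23 libraries, against 62.3 RPKM in the siCtrl library, a log2 ratio of 0.93 with SE 0.08 (limma adjusted p = 0.00105). Both siMed23 values were close to 2 times the control, 1.92 times on average. Its near-identical paralog Eif4a1 was 24 and 25.4 RPKM in the siMed23 libraries, against 18.6 RPKM in the siCtrl library, a log2 ratio of 0.39 with SE 0.08 (limma adjusted p = 0.0143). Eif4a2 held 84% and 81.7% of the summed RPKM of both paralogs in the siMed23 libraries and 77% in the siCtrl library, a split that depends on how shared reads were assigned. Eif4a3, the paralog in the exon junction complex, was 17.7 and 18.4 RPKM in the siMed23 libraries and 18.1 RPKM in the siCtrl library, with the control between the 2 knockdown values. Of the helicase cofactors, Eif4b rose to 197 and 198 RPKM in the siMed23 libraries, against 163 RPKM in the siCtrl library (limma adjusted p = 0.00754, 0.0601 without an intensity trend). Eif4h did not pass, at 147 and 157 RPKM in the siMed23 libraries and 164 RPKM in the siCtrl library.

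The scaffolds that link the cap to the ribosome were lower. Eif4g1 was 36.6 and 38.9 RPKM in the siMed23 libraries, against 56.2 RPKM in the siCtrl library, a log2 ratio of -0.56 with SE 0.08 (limma adjusted p = 0.00353). Eif4g3 fell to 7.23 and 7.35 RPKM in the siMed23 libraries, against 9.42 RPKM in the siCtrl library (limma adjusted p = 0.0392, 0.0571 with no filter on low values). Eif4g2, which lacks the eIF4E-binding part and serves cap-independent initiation, was 61.2 and 55.8 RPKM in the siMed23 libraries and 67 RPKM in the siCtrl library (limma adjusted p = 0.0938, 0.0354 after the length and GC correction). All 3 scaffolds thus had both knockdown values below the control, and 2 passed the test. Of all tested genes, 44.2% were below the control in both libraries and 24% were called lower. The RPKM of Eif4e was 1.02 and 0.847 times that of Eif4g1 in the siMed23 libraries and 0.556 times in the siCtrl library.

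All 3 genes for 4E-binding proteins, which hold eIF4E away from eIF4G until mTOR phosphorylates them, fell. Among all tested genes, 24% were called lower. Eif4ebp2 had the largest fall of all members on the log2(RPKM + 1) scale, at 7.19 and 9.67 RPKM in the siMed23 libraries, against 21.3 RPKM in the siCtrl library, a log2 ratio of -1.25 with SE 0.17 (limma adjusted p = 0.00357). Its siMed23 mean was 39.6% of the control, which by RPKM alone was close to the 39.5% of Eif2c3, and both knockdown values lay far below the control. Eif4ebp1, by far the most abundant of the 3, was 194 and 202 RPKM in the siMed23 libraries, against 236 RPKM in the siCtrl library, a log2 ratio of -0.25 with SE 0.05 (limma adjusted p = 0.0111, 0.0781 without an intensity trend). Eif4ebp3 was 1.84 and 1.59 RPKM in the siMed23 libraries, against 3.23 RPKM in the siCtrl library (limma adjusted p = 0.00974). The Eif4ebp3 locus overlaps another gene in GENCODE M21, so shared reads make its level uncertain. The summed RPKM of the 4E-binding proteins and Eif4enif1 was 210.3 and 221 in the siMed23 libraries, against 266 in the siCtrl library. Eif4enif1, which carries eIF4E into the nucleus and into processing bodies, rose to 7.14 and 7.89 RPKM in the siMed23 libraries, against 5.52 RPKM in the siCtrl library (limma adjusted p = 0.0360, 0.0585 with no filter).

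**Figure D4:**
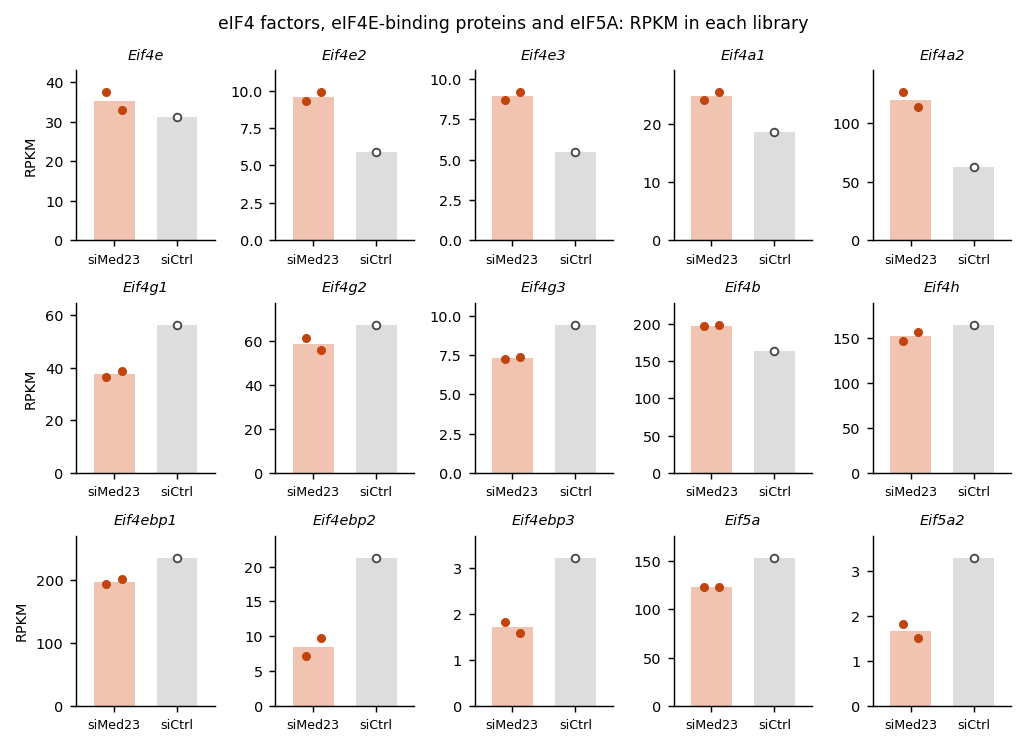
RPKM of 15 genes of eIF4 factors, 4E-binding proteins and eIF5A, 1 panel each with an axis from 0. Bars give the mean of the 2 siMed23 libraries and the value of the siCtrl library, and points give the libraries, with the first siMed23 library on the left. Eif4a2 stands near 120 RPKM in siMed23 and near 62 RPKM in siCtrl, whereas the 3 4E-binding proteins, Eif4g1 and both eIF5A genes are lower in siMed23.

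The 3 subunits of eIF2 differed. Eif2s3x, the gamma subunit that binds GTP and tRNA and whose start is printed above, was 9.64 and 8.99 RPKM in the siMed23 libraries, against 5.60 RPKM in the siCtrl library, a log2 ratio of 0.64 with SE 0.10 (limma adjusted p = 0.00593). Eif2s1, the alpha subunit that stress kinases phosphorylate, was 19 and 20.2 RPKM in the siMed23 libraries, against 23.3 RPKM in the siCtrl library, a log2 ratio of -0.24 with SE 0.09 (limma adjusted p = 0.0680, 0.0468 after rescaling the libraries by their median ratio). Eif2s2, the beta subunit, was 30.4 and 24 RPKM in the siMed23 libraries, against 20.4 RPKM in the siCtrl library (limma adjusted p = 0.0757, 0.00105 after the length and GC correction). Both siMed23 values were thus above the control for the beta and gamma subunits and below it for the alpha subunit.

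The exchange factor eIF2B, which reloads eIF2 with GTP, rose in 2 of 5 subunits and fell in none. Of all tested genes, 26.3% were called higher and 24% lower. Eif2b1 was 11.9 and 12.8 RPKM in the siMed23 libraries, against 8.93 RPKM in the siCtrl library (limma adjusted p = 0.0187). Eif2b2 was 26.2 and 25.1 RPKM in the siMed23 libraries, against 20.4 RPKM in the siCtrl library (limma adjusted p = 0.0245), and no longer passed after the length and GC correction (limma adjusted p = 0.127). Eif2b5, the catalytic subunit, was 28.8 and 28.9 RPKM in the siMed23 libraries and 28.7 RPKM in the siCtrl library, a log2 ratio of 0.01 with SE 0.08 (limma adjusted p = 0.930). Its 3 values nearly coincide. Eif2b3 and Eif2b4 did not pass.

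Eif2a and Eif2d, factors that can bring initiator tRNA without eIF2, both rose. Eif2a was 32.6 and 25.9 RPKM in the siMed23 libraries, against 18 RPKM in the siCtrl library (limma adjusted p = 0.0140). Eif2d was 6.38 and 6.44 RPKM in the siMed23 libraries, against 4.81 RPKM in the siCtrl library (limma adjusted p = 0.0372, 0.0613 with no filter). Of the 5 genes of the eIF1 and eIF1A family, 2 rose, where 26.3% of all tested genes were called higher. Eif1, which guards start codon choice, was 187 and 204 RPKM in the siMed23 libraries, against 123 RPKM in the siCtrl library, a log2 ratio of 0.66 with SE 0.07 (limma adjusted p = 0.00167). Its paralog Eif1b was 65.1 and 68.4 RPKM in the siMed23 libraries and 66.7 RPKM in the siCtrl library, so the control lay between both knockdown values. Eif1ad, named for its eIF1A-like domain, rose to 10.2 RPKM in each siMed23 library, against 7.10 RPKM in the siCtrl library (limma adjusted p = 0.0124), while Eif1a and Eif1ax did not pass.

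The late factors of initiation and eIF5A were lower or did not pass. Eif5b, the GTPase that joins the ribosomal subunits, was 12.4 and 10.3 RPKM in the siMed23 libraries, against 19.7 RPKM in the siCtrl library, a log2 ratio of -0.75 with SE 0.13 (limma adjusted p = 0.00689). Eif5, which triggers GTP hydrolysis by eIF2, was 36.5 and 30.5 RPKM in the siMed23 libraries and 32.4 RPKM in the siCtrl library. Eif6, which keeps the large ribosomal subunit apart until it is mature, was 19.3 and 20.9 RPKM in the siMed23 libraries and 19.7 RPKM in the siCtrl library. For both, the control lay between the knockdown values.

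Eif5a, the hypusine-bearing factor that helps ribosomes through poorly reacting stretches, fell to 122.9 and 123 RPKM in the siMed23 libraries, against 154 RPKM in the siCtrl library, a log2 ratio of -0.32 with SE 0.05 (limma adjusted p = 0.00617). Its scarce paralog Eif5a2 was 1.81 and 1.51 RPKM in the siMed23 libraries, against 3.30 RPKM in the siCtrl library, a log2 ratio of -0.69 with SE 0.13 (limma adjusted p = 0.00882). After the length and GC correction its ratio was -0.20 (limma adjusted p = 0.190). The enzymes that make hypusine, Dhps and Dohh, did not pass.

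The 8 factors listed here as encoded by TOP messages, after earlier work in mammalian cells, were all higher. The list need not be complete and was chosen with earlier results of these data known. It holds Eef1a1, Eef1b2, Eef1d, Eef1g, Eef2, Eif3e, Eif3f and Eif3h, so 5 of the 8 are the elongation genes described above. All 8 passed, with log2 ratios from 0.47 to 0.76 and a median of 0.54, where 26.3% of all tested genes were called higher. In the search of annotated starts described above, Eif3f had a TOP-type start, Eef1a1, Eef1b2 and Eef2 had a window without one, and the other 4 had no window. Of the 47 other tested members without the Argonaute genes, 19 were higher and 10 lower, with a median of 0.11. After the length and GC correction the 8 still passed, with a median of 0.46. These counts describe a list drawn from the same members and were not tested against the rest.

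The 3 Argonaute genes past the filter, taken in by name, had lower values in both siMed23 libraries, as did 44.2% of all tested genes. Eif2c2, the older symbol of Ago2, which cuts targets of small RNAs, was 20.4 and 22.5 RPKM in the siMed23 libraries, against 43.8 RPKM in the siCtrl library, a log2 ratio of -1.002 with SE 0.09 (limma adjusted p = 0.00127). Eif2c3 was 0.952 and 0.739 RPKM in the siMed23 libraries, against 2.14 RPKM in the siCtrl library. It passed the filter only through that control value, so no test is given for it. Eif2c1 did not pass, at 3.87 and 4.25 RPKM in the siMed23 libraries and 5.01 RPKM in the siCtrl library, and Eif2c4 lay under the filter. Without these genes the counts were 27 higher and 10 lower among 55 tested members, with a median log2 ratio of 0.27.

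Among other genes of the pathway, from lists that together held 67 genes, 64 were tested, of which 14 were called higher and 13 lower, with a median log2 ratio of 0.07. The shares, 21.9% and 20.3%, stood beside 26.3% and 24% of all tested genes, and after the length and GC correction the counts were 20 higher and 14 lower. The largest change by far was in Ppp1r15a, which brings the phosphatase that removes the phosphate from eIF2 alpha. It was 49.1 and 45.9 RPKM in the siMed23 libraries, against 5.93 RPKM in the siCtrl library, a log2 ratio of 2.81 with SE 0.09 (limma adjusted p = 0.000112). Its constitutive relative Ppp1r15b rose with a log2 ratio of 0.34, which was 0.63 after the length and GC correction. Of the eIF2 kinases, Eif2ak3, which responds to the endoplasmic reticulum, fell to 4.25 and 4.28 RPKM in the siMed23 libraries, against 9.16 RPKM in the siCtrl library (limma adjusted p = 0.00203). Eif2ak2, the kinase that senses double-stranded RNA, was 5.72 and 4.28 RPKM in the siMed23 libraries and 3.95 RPKM in the siCtrl library, and did not pass (limma adjusted p = 0.232). Gcn1l1 and Dnajc3, an activator and an inhibitor of eIF2 kinases, fell with log2 ratios of -0.70 and -0.57, which made 2 rises and 3 falls among the 10 genes of this list. After the length and GC correction Dnajc3 was at -0.17 and no longer passed (limma adjusted p = 0.118).

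The branch from mTOR to translation held 3 rises and 4 falls among 15 genes, shares near those of all tested genes, and 6 and 4 after the length and GC correction. Mtor was 4.57 and 4.68 RPKM in the siMed23 libraries, against 6.05 RPKM in the siCtrl library, just past the test (limma adjusted p = 0.0490). Mknk2, a kinase of eIF4E, fell to 24.4 and 24.6 RPKM in the siMed23 libraries, against 54 RPKM in the siCtrl library (limma adjusted p = 0.000561), whereas Mknk1 rose to 2.20 and 2.47 RPKM in the siMed23 libraries, against 1.36 RPKM in the siCtrl library (limma adjusted p = 0.0205). Pdcd4, an inhibitor of eIF4A, and Deptor, an inhibitor of mTOR, fell with log2 ratios of -0.33 and -0.50, and Rps6 and Mlst8 rose with log2 ratios of 0.72 and 0.57.

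Of the 7 genes for poly(A)-binding proteins and their partners, 4 rose, 2 fell and 1 did not pass. These shares, 57.1% higher and 28.6% lower, stood beside 26.3% and 24% of all tested genes. Pabpc1, which bridges the tail of the message to eIF4G, was 221 and 229 RPKM in the siMed23 libraries, against 169 RPKM in the siCtrl library (limma adjusted p = 0.00256). Paip1, Paip2 and Paip2b, which promote or block its action, rose with log2 ratios of 0.35, 0.48 and 0.51, and Larp4 and Larp4b fell with log2 ratios of -0.98 and -0.86. The release factors Gspt1 and Etf1 fell. Gspt1 was 12.5 and 11.7 RPKM in the siMed23 libraries, against 20.8 RPKM in the siCtrl library, and Etf1 was 34.1 and 35.5 RPKM in the siMed23 libraries, against 48.7 RPKM in the siCtrl library (limma adjusted p = 0.00312 and 0.00516). After the length and GC correction the log2 ratio of Etf1 was -0.18, against -0.47 without it, and no longer passed (limma adjusted p = 0.110). Mcts1, the partner of Denr in ribosome recycling, and its relative Mcts2 rose with log2 ratios of 0.54 and 0.63, and the other 6 tested genes of the termination and recycling list did not pass.

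Mitochondrial translation factors mostly did not pass, with 1 of 11 higher, Mrrf, and 1 lower, Gfm1, at log2 ratios of 0.67 and -0.46. The share of 9.09% in each direction stood beside 26.3% higher and 24% lower of all tested genes. After the length and GC correction 2 were higher and 2 lower. Tufm, the mitochondrial counterpart of eEF1A, was 5.91 and 5.50 RPKM in the siMed23 libraries and 4.40 RPKM in the siCtrl library (limma adjusted p = 0.0633). Eefsec, which delivers selenocysteine, fell to 12.6 and 11.7 RPKM in the siMed23 libraries, against 26.9 RPKM in the siCtrl library (limma adjusted p = 0.00107), the only call among the 4 tested genes of that list without the length and GC correction, after which Sepsecs was also called higher. For the diphthamide residue that eEF2 carries, Dph3 and Wdr85 rose with log2 ratios of 0.88 and 0.56 and the other 3 tested genes did not pass.

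Transcript length and GC content moved with the ratios over all genes. Spearman's correlation of the log2 ratio with length was -0.211 and with GC content 0.196 over 9614 annotated genes, and -0.17 and -0.098 over the 58 members, given as a description of genes that share their libraries. Members called higher had a median transcript length of 797 bases, against 888 bases for members called lower and 1213 bases for members that did not pass. Each gene's length was a median over all its annotated transcripts, short ones included, with 850 bases for Eif4g1 and 651 bases for Eef2. It can therefore be far from the length of the main message, which limits the correction as well. After a correction for both, 26 members were called higher and 12 lower, against 27% and 26.3% of all genes in that fit.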

How the data were processed

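Total RNA was extracted with Trizol and a column kit and sequenced on Illumina libraries, per the labels' protocols. The authors deposited RPKM values. CASAVA 1.4, TopHat, Cufflinks and mm9 are listed in the submitters' processing notes without a role or order, while the annotation, strand handling and filter are not given in the sources used here. Sorted from low to high, the 3 columns held the same value, to a relative 1e-09, at 95.3% of ranks, so the deposited RPKM had been quantile normalized across libraries. The siMed23 column names could not be told apart, so these columns are called the first and the second library by place.

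The 9722 genes that averaged 1 RPKM or more were tested as log2(RPKM + 1) with limma 3.58.1 in R 4.3.3 (lmFit and eBayes with an intensity trend), Benjamini-Hochberg adjusted over all of them, and called at an adjusted p under 0.05. Residual degrees of freedom numbered 1 and prior degrees of freedom 4.37. The step was run on simulated data with normal noise, without quantile normalization, in which the control varied like a siMed23 library. That run cannot show how the calls hold where the control varies more. Full statistics were given for the 6 largest rises and 6 largest falls, by the smaller change of both libraries, and for a fixed set of genes. Eif2c3, among these falls, was given none because it passed the filter only through its control value. Members and lists were chosen with earlier results of these data known. The other settings tried were 0.1 as pseudocount, dropping the filter or raising it to 5 RPKM, libraries rescaled by median ratio, no intensity trend, a control that varied 2 or 3 times as much as a siMed23 library, fold limits of 1.5 and 2, a loess correction for length and GC content (medians over a gene's GENCODE M21 transcripts, 98.1% of genes matched by ID), and each siMed23 library left out. Promoters came from RefSeq on GRCm38.p6, matched by symbol for 46 of 59 members; Eef1d, Eef1g, Eif1a, Eif2b3, Eif2c2, Eif3e, Eif3h, Eif3i, Eif4e3, Eif4ebp1, Eif4ebp3, Eif4g2 and Eif6 had no match. Python 3.11.15, pandas 2.3.3, numpy 2.4.6 and matplotlib 3.10.9 were used.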

Additional observations from a re-analysis of the deposited data

How the results depend on the processing

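The lone control sets the main limit, since its own spread cannot be measured. Where the control was given 2 times the SD of a siMed23 library, 11 of the 58 members were called higher and 4 lower. Under that setting 810 of all 9722 tested genes were called higher and 683 lower. Among the genes given full statistics, Eif2s3x, Eif3e, Eif4a1, Eif4ebp1, Eif5a, Eif5a2 and Eif5b no longer passed with 2 times. With 3 times, 2 members were called higher and 0 lower, against 118 and 77 of all tested genes. By fold alone, 8 members were 1.5-fold higher and 7 lower in both libraries, and 0 were 2-fold higher and 2 lower. Under the other planned settings with a test, the counts stayed between 25 and 27 higher and between 9 and 13 lower. The median log2 ratio of the members was 0.26 with a pseudocount of 0.1, 0.17 with no filter, 0.32 with a minimum of 5 RPKM and 0.17 after the length and GC correction, and the cause was not tested. It was 0.20 and 0.26 with 1 siMed23 library left out, which leaves 1 library against 1 and no test. Eif2b5, near 0, changed sign to -0.013 after rescaling and to -0.043 after the length and GC correction. No paired analysis was possible because the control had a single library. Depth was unknown, so no counting error could be given.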
